A study of Sus scrofa with 9 samples.

Results

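The genes described here encode membrane carriers of sugars, of nucleotide sugars and of metal ions, taken from families of the solute carrier (SLC) superfamily. A gene was a member when its only symbol in the array's annotation belonged to family SLC2, SLC5, SLC11, SLC30, SLC31, SLC35 (branches A to F), SLC37, SLC39, SLC40, SLC41, SLC45 or SLC50, with SLC37A4 left out. This gave 63 of the 12362 genes named on the array. By role they were 18 sugar carriers, 5 sodium-coupled SLC5 carriers of other solutes, 10 nucleotide-sugar carriers (SLC35A to SLC35D), 10 members of SLC35E and SLC35F, and 20 metal carriers. Where a gene had several probe sets, which was so for SLC5A1, SLC5A8 and SLC30A8, the gene was read from its brightest probe set, by the mean of the 9 arrays. SLC2A1, SLC2A5, SLC2A9, SLC5A3, SLC35B1, SLC45A3, SLC11A2, SLC40A1, SLC30A1, SLC31A1 and SLC41A1 had no probe set of that name and were not analysed here.

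The samples were kidney biopsies from 9 male Yorkshire pigs of 30 kg, each hybridised to 1 Affymetrix array. In every animal the right kidney went without blood flow for 30 min while warm, was flushed, and was put back into its own donor animal, whose left kidney was taken out. No Storage kidneys (n = 3) were put back directly, SCS kidneys (n = 3) after 8 h of static cold storage, and NEVKP kidneys (n = 3) after 8 h of normothermic ex vivo kidney perfusion, in which warm perfusate is pumped through the organ outside the body. All biopsies date from day 3 after the operation. The No Storage group is thus an injured and reimplanted kidney and not a healthy one. The values are log2 intensities, so a difference of 1 is a doubling, and they are compared between arrays for the same gene and never between genes.

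Sugar carriers work in series in the kidney tubule. SLC5A2 (SGLT2) takes up most filtered glucose with sodium at the brush border of the early proximal tubule, SLC5A1 (SGLT1) takes up what is left further along, and SLC2A2 (GLUT2) lets glucose leave the cell on the blood side. The SLC35A to SLC35D carriers bring nucleotide sugars and the sulphate donor PAPS into the Golgi apparatus and endoplasmic reticulum for glycan synthesis. Among metal carriers, SLC39 (ZIP) proteins move zinc and related metals into the cytosol, SLC30 (ZnT) proteins move zinc out of it, SLC31 carries copper, SLC11 carries iron and manganese, and SLC41 carries magnesium.

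Array medians of the log2 values ran from 5.705 to 5.797, and correlations between arrays across probe sets from 0.974 to 0.991. A gene is called dim below the log2 value of 3.92, which bounds the lowest 25% of probe sets. Of the 6 measured proximal tubule markers and the 10 measured markers of loop, distal tubule and collecting duct, 0 were dim. The 3 measured fat and muscle markers were not dim either, so this bound does not identify the tissue. SCS replicate 2 and NEVKP replicate 2 had the lowest array weights, 0.46 and 0.57, against 0.93 to 1.62 for the others. SCS replicate 2 was the lowest of the 9 arrays for 22 of the 63 transporters (34.9%) and for 19.4% of all named genes. No Storage replicate 3 was the highest for 17 transporters (27.0%, with 12.7% of all named genes), and NEVKP replicate 2 for 15 (23.8%, with 17.0%).

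In limma, a linear model fitted to all 19124 probe sets, 0 of 63 transporters passed an adjusted p of 0.05 in SCS against No Storage, NEVKP against No Storage, NEVKP against SCS, or the F test among the groups. Over all named genes the share past this threshold was 0.21% for SCS against No Storage, 0.0% for both comparisons of NEVKP, and 0.00809% for the F test. At an unadjusted p under 0.05 there were 15 transporters in SCS against No Storage (23.8%, with 16.8% of all named genes), 8 in NEVKP against No Storage (12.7%, with 9.93%), 7 in NEVKP against SCS (11.1%, with 7.71%) and 14 in the F test (22.2%, with 13.9%). The differences below are therefore sizes with their errors, and none of them is a change that passed over the whole array. Both comparisons with No Storage use the same 3 No Storage arrays.

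Of the 15 transporters at an unadjusted p under 0.05 in SCS against No Storage, 11 lay lower in SCS (17.5%, with 9.05% of all named genes) and 4 higher (6.35%, with 7.79%). The 11 were SLC5A2, SLC5A11, SLC5A12, SLC2A11, SLC35D1, SLC35F5, SLC39A5, SLC39A11, SLC30A4, SLC30A9 and SLC31A2, and the 4 were SLC39A14, SLC11A1, SLC30A8 and SLC50A1. All SCS arrays lay below all No Storage arrays for 12 transporters (19.0%, with 13.3% of all named genes) and above them for 6 (9.52%, with 11.7%). In NEVKP against No Storage, SLC11A1, SLC37A2 and SLC50A1 lay higher at an unadjusted p under 0.05 (4.76%, with 5.16% of all named genes) and SLC31A2, SLC35D1, SLC39A5, SLC5A11 and SLC5A9 lower (7.94%, with 4.76%). All NEVKP arrays lay below No Storage for 9 transporters (14.3%, with 9.31%) and above for 4 (6.35%, with 8.74%). In NEVKP against SCS, SLC5A1, SLC5A8, SLC5A10, SLC30A9 and SLC39A11 lay higher (7.94%, with 4.42%) and SLC39A14 and SLC5A5 lower (3.17%, with 3.29%). All NEVKP arrays lay above SCS for 3 transporters (4.76%, with 5.83%) and below for 6 (9.52%, with 6.56%). By role, the 15 in SCS against No Storage were 8 of 20 metal carriers, 4 of 18 sugar carriers, 1 of 5 other SLC5 carriers, and 1 of 10 in each SLC35 role, beside 16.8% of all named genes.

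**Figure D1:**
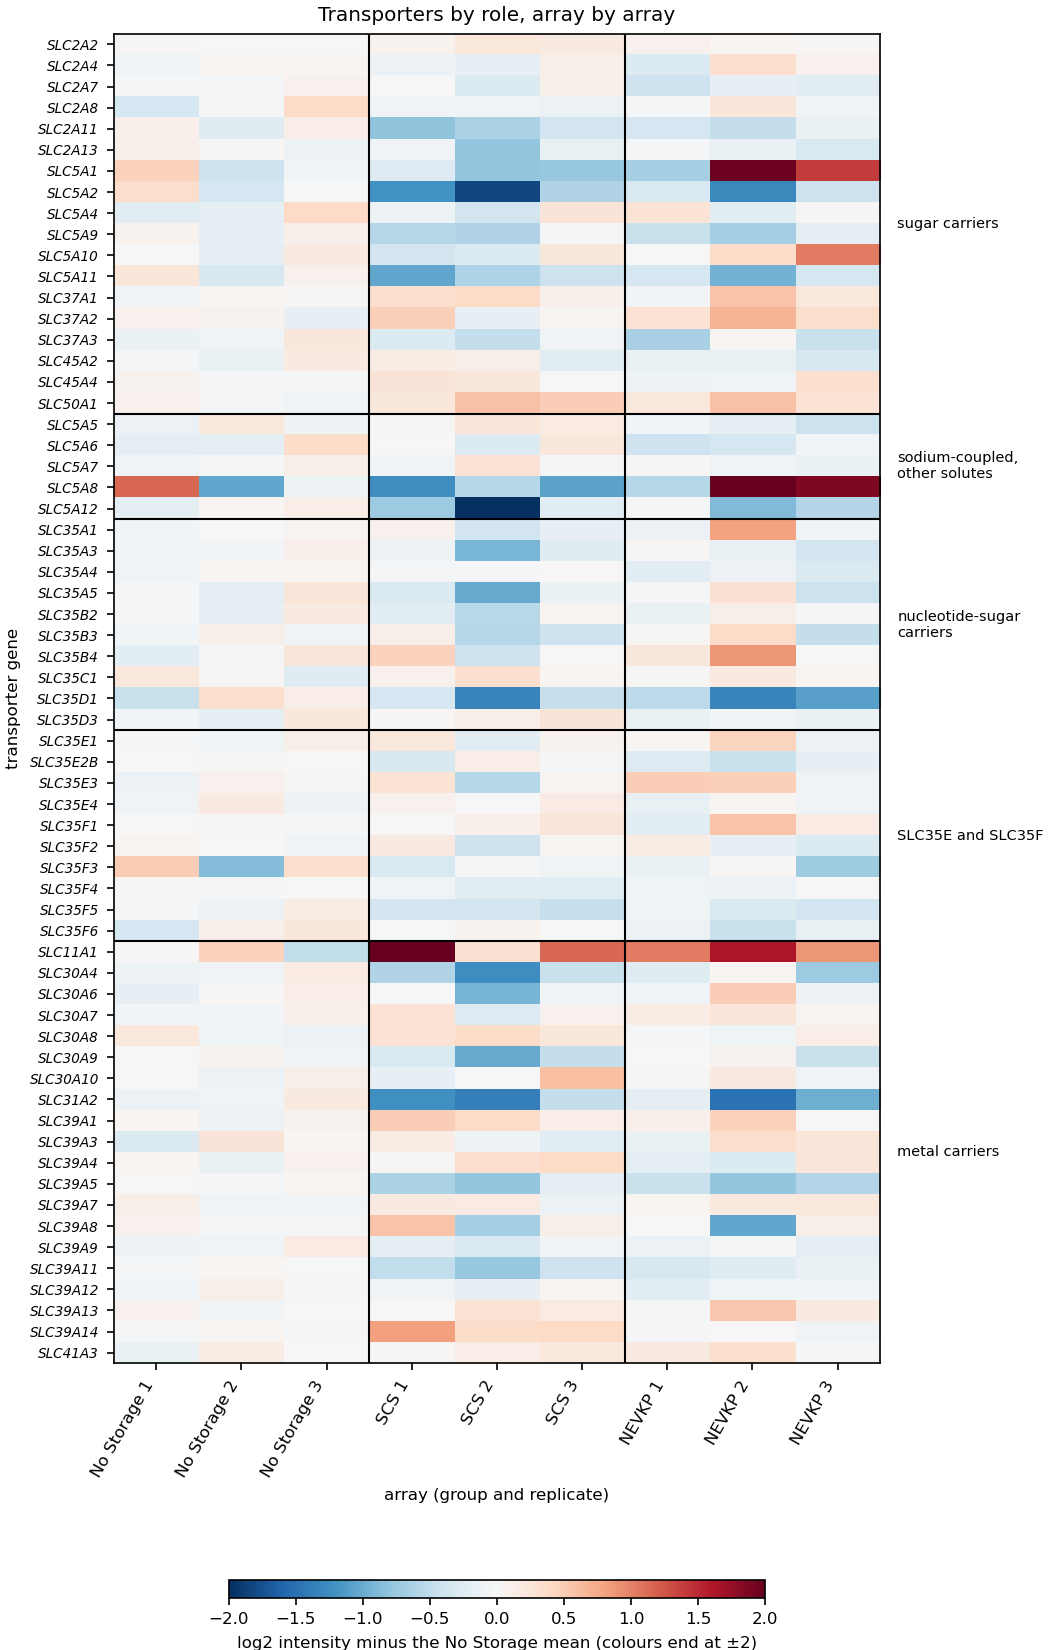
Log2 intensity of each of the 63 transporters on each array, as the difference from the mean of the 3 No Storage arrays, with genes ordered by role and colours ending at ±2. SLC5A2, SLC5A11 and SLC31A2 are blue in all SCS arrays, SLC11A1 is red in all SCS and NEVKP arrays, and SLC5A1 and SLC5A8 are darkest in NEVKP replicates 2 and 3.

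The largest SCS difference from No Storage among sugar carriers was that of SLC5A2. SLC5A2 (NCBI Gene ID 100286743) measured 12, 11.31 and 11.65 in the No Storage arrays, 10.44, 9.83 and 11.05 in SCS, and 11.35, 10.37 and 11.24 in NEVKP. All SCS arrays lay below all No Storage arrays, while NEVKP overlapped both groups. SCS minus No Storage was -1.21 (SE 0.34, 95% interval -1.96 to -0.46, limma adjusted p = 0.135), a 2.32-fold lower value, and NEVKP minus No Storage was -0.67 (interval -1.42 to 0.08, adjusted p = 0.588). NEVKP minus SCS was 0.54 with an interval from -0.21 to 1.29, so the data do not separate the 2 preserved groups. It was 0.24 without SCS replicate 2 and 0.85 without NEVKP replicate 2. Without SCS replicate 2 the SCS difference was -0.91, and without NEVKP replicate 2 the NEVKP difference was -0.36.

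SLC2A2, the exit route for glucose, lay higher in every preserved kidney than in every No Storage kidney, but by small amounts. It measured 12.72, 12.69 and 12.70 in No Storage, 12.78, 12.91 and 12.88 in SCS, and 12.79, 12.75 and 12.73 in NEVKP. The SCS difference was 0.15 (interval -0.08 to 0.39) and the NEVKP difference 0.05 (interval -0.18 to 0.29), the latter -0.0023 with arrays centred on their medians. The highest probe set of each array read 12.94 to 13.18, so SLC2A2 lay close to the top of the range, where an array can compress differences; whether it did so here was not tested.

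SLC5A1 and SLC5A8 differed from the other carriers by a wide spread among animals. SLC5A1 (NCBI Gene ID 397113) measured 7.41, 6.53 and 6.89 in No Storage, 6.68, 6.17 and 6.19 in SCS, and 6.28, 8.91 and 8.34 in NEVKP. SLC5A8 (NCBI Gene ID 100524807), a sodium-coupled carrier of lactate and other monocarboxylates, measured 6.8, 4.60 and 5.54 in No Storage, 4.40, 5.08 and 4.58 in SCS, and 5.08, 8.15 and 7.51 in NEVKP. For both genes NEVKP replicates 2 and 3 were the highest arrays and No Storage replicate 1 the next, while NEVKP replicate 1 lay at the level of the SCS arrays.

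Against No Storage, NEVKP differed by 0.90 (interval -0.32 to 2.11) for SLC5A1 and 1.27 (interval -0.35 to 2.89) for SLC5A8. Without NEVKP replicate 2 these were 0.36 and 0.65, and without NEVKP replicate 1 they were 1.68 and 2.19. NEVKP minus SCS was 1.5 (SE 0.55, limma adjusted p = 0.622) for SLC5A1 and 2.23 (SE 0.73, adjusted p = 0.599) for SLC5A8. Without NEVKP replicate 1 the differences from SCS became 2.28 and 3.15, and without NEVKP replicate 2 they became 0.97 and 1.61. The SD of the 3 NEVKP arrays was 1.38 for SLC5A1 and 1.62 for SLC5A8, against 0.29 and 0.35 in SCS. The second probe set of SLC5A1 gave 1.28, and that of SLC5A8 gave 2.94 with the same 3 arrays highest. For SLC5A8 the probe sets disagreed for SCS minus No Storage, at -0.96 (SE 0.73) and -2.17 (SE 0.79, limma adjusted p = 0.225). SCS overlapped No Storage in the brightest probe set. In the second, SCS measured 4.23, 4.04 and 3.5, below all No Storage arrays at 7.29, 5.49 and 5.51. NEVKP minus No Storage was 0.77 in the second probe set. The difference of -0.96 was -0.38 without No Storage replicate 1 and -1.48 without No Storage replicate 2.

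SLC5A10 (SGLT5, NCBI Gene ID 497235), a kidney carrier of mannose and fructose, measured 8.96, 8.78 and 9.15 in No Storage, 8.59, 8.69 and 9.19 in SCS, and 8.97, 9.33 and 10 in NEVKP. NEVKP minus SCS was 0.61 (SE 0.25, adjusted p = 0.648), and it was 0.32 without NEVKP replicate 3, the highest array. SLC5A9 (SGLT4), a carrier of mannose and other sugars, measured 6.94, 6.70 and 6.97 in No Storage, 6.30, 6.27 and 6.83 in SCS, and 6.42, 6.19 and 6.67 in NEVKP. Its differences from No Storage were alike in size, -0.40 in SCS (adjusted p = 0.335) and -0.44 in NEVKP (adjusted p = 0.531). SLC5A4 (SGLT3), a close relative of SGLT1, differed by -0.07 in SCS (interval -0.55 to 0.41) and 0.02 in NEVKP (interval -0.46 to 0.50).

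SLC5A11 (SMIT2), which takes up myo-inositol with sodium, measured 6.64, 6.08 and 6.48 in No Storage, 5.36, 5.79 and 5.97 in SCS, and 6.07, 5.46 and 6.06 in NEVKP. Every preserved kidney lay below every No Storage kidney, with limma differences of -0.69 in SCS (SE 0.23, adjusted p = 0.179) and -0.53 in NEVKP (SE 0.23, adjusted p = 0.531). The NEVKP difference was -0.33 without NEVKP replicate 2. MIOX, the kidney enzyme that breaks down myo-inositol, differed by -1.33 in SCS (adjusted p = 0.0646) and -0.29 in NEVKP. SLC2A13, a proton-coupled myo-inositol carrier, differed by -0.33 in SCS, where its arrays overlapped No Storage, and by -0.16 in NEVKP. Without SCS replicate 2 its SCS difference was -0.11.

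SLC5A12, the second sodium-coupled lactate carrier, measured 12.64, 12.86 and 12.95 in No Storage, 12.09, 10.72 and 12.60 in SCS, and 12.77, 11.94 and 12.23 in NEVKP. SCS minus No Storage was -1.01 (SE 0.40, adjusted p = 0.263), and -0.47 without SCS replicate 2, which alone lay more than 1 log2 unit below the other SCS arrays. Its No Storage values, like those of SLC2A2, lay close to the top of the array range, where differences can be compressed, and this was not tested. The remaining SLC5 carriers of other solutes gave small values. The vitamin carrier SLC5A6 differed by -0.01 in SCS and -0.26 in NEVKP and the choline carrier SLC5A7 by 0.05 and -0.06. SLC5A5, the iodide carrier of the thyroid, was dim, and NEVKP minus SCS was -0.36 (adjusted p = 0.648).

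Among facilitative carriers, SLC2A11 (GLUT11), which carries glucose and fructose, measured 8.19, 7.85 and 8.23 in No Storage, 7.29, 7.45 and 7.71 in SCS, and 7.76, 7.62 and 7.96 in NEVKP. SCS lay below No Storage in all arrays, with a difference of -0.61 (SE 0.16, adjusted p = 0.125), and NEVKP overlapped both at -0.31. SLC2A4, the insulin-responsive GLUT4, differed by -0.06 and 0.05, the intracellular carrier SLC2A8 by -0.09 and 0.05, and SLC2A7 by -0.05 and -0.26, in SCS and NEVKP in that order.

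A few other sugar carriers lay higher after preservation. SLC50A1, the animal member of the SWEET family of sugar channels, measured 7.10, 6.98 and 6.94 in No Storage, 7.24, 7.60 and 7.5 in SCS, and 7.22, 7.60 and 7.28 in NEVKP. Every preserved kidney lay above every No Storage kidney, by 0.44 in SCS (SE 0.15, adjusted p = 0.193) and 0.36 in NEVKP (SE 0.15, adjusted p = 0.522). SLC37A2, an exchanger of glucose 6-phosphate for phosphate in the endoplasmic reticulum, measured 5.46, 5.45 and 5.22 in No Storage, 5.85, 5.22 and 5.42 in SCS, and 5.67, 6.05 and 5.73 in NEVKP. SLC37A2 differed by 0.44 in NEVKP (adjusted p = 0.518) and 0.12 in SCS, and its relative SLC37A1 by 0.24 and 0.28. SLC37A3, SLC45A2 and SLC45A4 differed by between -0.35 and 0.17 in both comparisons with No Storage. The lowest of these, SLC37A3 in NEVKP, was -0.54 without NEVKP replicate 2 and -0.19 without NEVKP replicate 1.

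**Figure D2:**
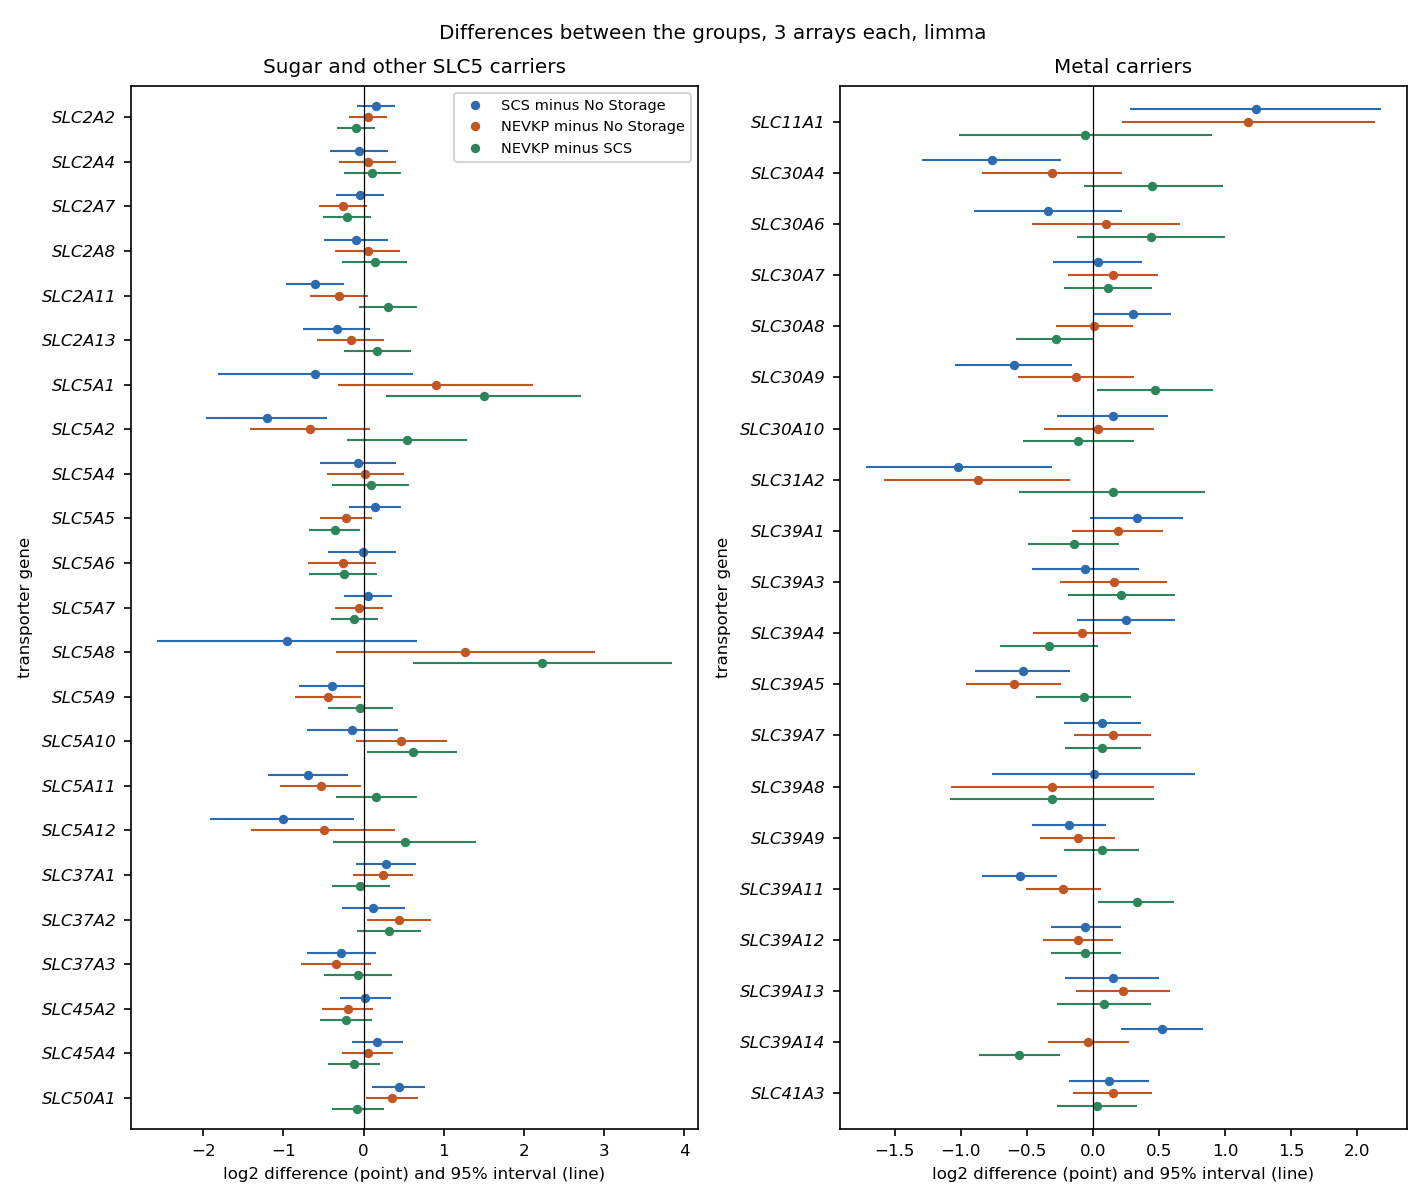
Log2 differences with their 95% intervals from limma for each sugar and other SLC5 carrier and for each metal carrier, in SCS minus No Storage, NEVKP minus No Storage and NEVKP minus SCS, with an axis range for each panel. SLC5A8 has the widest intervals, from 0.61 to 3.85 for NEVKP minus SCS, and the SLC39A14 point is at 0.52 for SCS minus No Storage and -0.04 for NEVKP minus No Storage.

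Zinc import genes split by member. SLC39A14 (ZIP14, NCBI Gene ID 100152468), which takes up zinc, manganese and iron not bound to transferrin, measured 9.25, 9.30 and 9.25 in No Storage, 10.08, 9.63 and 9.66 in SCS, and 9.24, 9.27 and 9.19 in NEVKP. All SCS arrays lay above the 6 other arrays, which spanned 9.19 to 9.30. SCS minus No Storage was 0.52 (SE 0.14, adjusted p = 0.124) and NEVKP minus SCS was -0.56 (SE 0.14, adjusted p = 0.52), while NEVKP minus No Storage was -0.04 with an interval from -0.34 to 0.27. SCS minus No Storage was 0.37 without SCS replicate 1, the highest array.

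SLC39A11 (ZIP11), a zinc carrier of internal membranes, and SLC39A5 (ZIP5), found on the blood side of polarised epithelia, lay lower. SLC39A11 measured 7.60, 7.68 and 7.66 in No Storage, 7.15, 6.89 and 7.23 in SCS, and 7.33, 7.40 and 7.52 in NEVKP, and the 3 groups did not overlap. Its SCS difference of -0.55 (SE 0.13, adjusted p = 0.0946) had the smallest p of all 63 transporters, NEVKP minus No Storage was -0.23, and NEVKP minus SCS was 0.33 (adjusted p = 0.648). SLC39A5 measured 6.96, 6.94 and 7.01 in No Storage, 6.34, 6.20 and 6.77 in SCS, and 6.53, 6.19 and 6.38 in NEVKP. All preserved kidneys lay below No Storage, by -0.53 in SCS (SE 0.16, adjusted p = 0.156) and -0.60 in NEVKP (SE 0.16, adjusted p = 0.395).

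SLC39A8 (ZIP8), a carrier of zinc and manganese, measured 10.83, 10.70 and 10.71 in No Storage, 11.32, 10.07 and 10.86 in SCS, and 10.76, 9.70 and 10.86 in NEVKP. Only replicate 2 of each preserved group was low, and the differences from No Storage were 0.0045 (interval -0.76 to 0.77) in SCS and -0.31 (interval -1.07 to 0.46) in NEVKP. The direction of both turned under other settings, to -0.28 without SCS replicate 1 and to 0.07 without NEVKP replicate 2. The other 7 measured SLC39 genes differed from No Storage by between -0.18 and 0.33 in SCS and between -0.11 and 0.23 in NEVKP. Of these, SLC39A1, a zinc importer of the cell surface, had the largest value, 0.33 in SCS (adjusted p = 0.344).

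Of the zinc exporters, SLC30A4 and SLC30A9 lay lower in SCS. SLC30A9, a zinc exporter of mitochondria, measured 9.55, 9.62 and 9.48 in No Storage, 9.24, 8.54 and 9.07 in SCS, and 9.55, 9.62 and 9.10 in NEVKP. SCS lay below No Storage in all arrays at -0.60 (SE 0.20, adjusted p = 0.184), and at -0.39 without SCS replicate 2. SLC30A4, which loads zinc into vesicles, measured 7.21, 7.24 and 7.47 in No Storage, 6.70, 6.07 and 6.86 in SCS, and 7.06, 7.35 and 6.58 in NEVKP. Its SCS difference was -0.76 (SE 0.24, adjusted p = 0.163), and -0.53 without SCS replicate 2.

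The Golgi zinc exporters SLC30A6 and SLC30A7 differed by -0.34 and 0.04 in SCS and by 0.10 and 0.15 in NEVKP, and without SCS replicate 2 SLC30A6 differed by -0.04 in SCS. SLC30A8, known from the insulin granules of the pancreas, differed by 0.30 in SCS (SE 0.13, adjusted p = 0.317), but its 2 other probe sets gave 0.03 and -0.01. SLC30A10, a manganese exporter whose probe set was dim, differed by 0.15 in SCS and 0.04 in NEVKP, and both values turned sign when single arrays were left out.

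The families SLC31, SLC41 and SLC11 were represented by 1 gene each. SLC31A2, a low-affinity copper carrier of internal membranes, measured 7.71, 7.75 and 8.01 in No Storage, 6.60, 6.46 and 7.35 in SCS, and 7.65, 6.35 and 6.85 in NEVKP. All preserved kidneys lay below No Storage, with NEVKP replicate 1 close to it. The differences were -1.02 in SCS (SE 0.32, adjusted p = 0.163) and -0.87 in NEVKP (SE 0.32, adjusted p = 0.472), the latter -0.57 without NEVKP replicate 2. SLC41A3, a carrier of magnesium, differed by 0.12 and 0.15.

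SLC11A1 (NRAMP1), which carries iron and manganese out of the phagosomes of macrophages and neutrophils, measured 5.17, 5.60 and 4.65 in No Storage, 7.38, 5.45 and 6.29 in SCS, and 6.18, 6.75 and 6.02 in NEVKP. All NEVKP arrays lay above No Storage, and in SCS replicate 2 alone overlapped it. The differences were 1.23 in SCS (SE 0.43, adjusted p = 0.205) and 1.17 in NEVKP (SE 0.43, adjusted p = 0.472), the largest upward differences from No Storage among metal carriers. Without SCS replicate 2 the SCS difference was 1.69, and without SCS replicate 1 it was 0.73.

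Of 7 listed macrophage markers, 5 were measured and 0 were dim. At an unadjusted p under 0.05, 2 were higher in SCS and 4 in NEVKP, and 0 passed the adjusted threshold in limma. Over all named genes 7.79% were higher in SCS and 5.16% in NEVKP at that unadjusted p. SPI1 differed by 1.03 in SCS and 0.93 in NEVKP and TYROBP by 0.52 and 0.76, while CD14 differed by 0.13 and -0.02. CSF1R and AIF1 overlapped No Storage in SCS, at 0.17 and 0.16, and differed by 0.43 and 0.46 in NEVKP. The mean of the 5 markers per array, relative to No Storage, ran from -0.07 to 0.03 in No Storage, 0.23 to 0.59 in SCS and 0.39 to 0.66 in NEVKP. Of 3 measured neutrophil markers, 2 of them dim, the mean ran from -0.17 to 0.22, 0.46 to 1.00 and 0.10 to 0.26. In SCS this mean mostly followed S100A12, which differed by 1.51, while the dim S100A8 and S100A9 differed by 0.15 and 0.32. The part of the macrophage and neutrophil markers in the SLC11A1 values was not tested. In a biopsy, more cells of a type and more RNA per cell cannot be told apart.

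**Figure D3:**
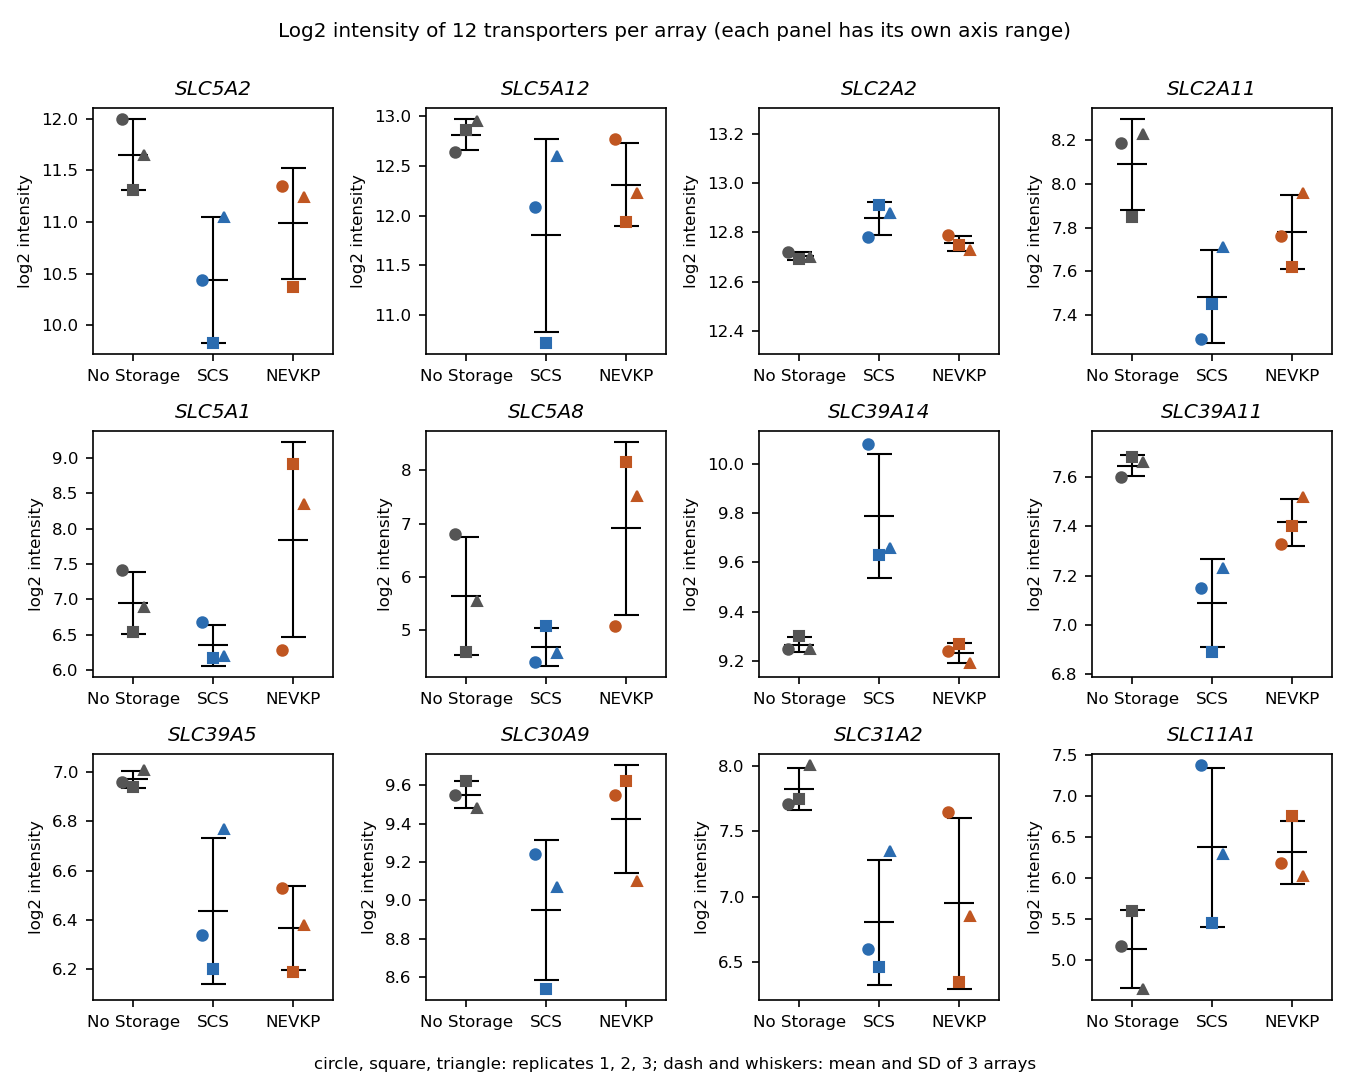
Log2 intensity of 12 transporters on each array in No Storage, SCS and NEVKP, with symbols for replicates 1 to 3 and the mean and SD of the 3 arrays. SLC39A14 is high in SCS alone, SLC39A5 is lower in both preserved groups, and the NEVKP arrays of SLC5A1 spread from 6.28 to 8.91.

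Nucleotide-sugar carriers gave smaller values apart from SLC35D1, which brings UDP-glucuronic acid and UDP-N-acetylgalactosamine into the endoplasmic reticulum. SLC35D1 (NCBI Gene ID 733680) measured 7.69, 8.45 and 8.26 in No Storage, 7.80, 6.81 and 7.68 in SCS, and 7.61, 6.81 and 7.04 in NEVKP. All NEVKP arrays lay below No Storage at -0.98 (SE 0.30, adjusted p = 0.439), and SCS overlapped it at -0.70 (SE 0.30, adjusted p = 0.304), or -0.39 without SCS replicate 2. The CMP-sialic acid carrier SLC35A1 differed by -0.15 in SCS and 0.22 in NEVKP, the latter -0.08 without NEVKP replicate 2, the only high array at 8.60. SLC35A3, a carrier of UDP-N-acetylglucosamine, differed by -0.42 in SCS, and by -0.17 without SCS replicate 2, whose value of 7.36 was the lowest of the 9 arrays.

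The other 7 nucleotide-sugar carriers differed from No Storage by between -0.47 and 0.15 in SCS and between -0.21 and 0.37 in NEVKP. The low end in SCS was SLC35A5, at -0.21 without SCS replicate 2, and the high end in NEVKP was SLC35B4, at 0.11 without NEVKP replicate 2. The 7 include the PAPS carriers SLC35B2 (-0.24 and -0.02) and SLC35B3 (-0.30 and -0.02, the former -0.16 without SCS replicate 2), and the GDP-fucose carrier SLC35C1 (0.15 and 0.08). In SLC35E and SLC35F, whose substrates are less well defined, SLC35F5 measured 8.72, 8.64 and 8.90 in No Storage, 8.37, 8.38 and 8.30 in SCS, and 8.66, 8.47 and 8.37 in NEVKP. Its SCS arrays lay below No Storage at -0.40 (SE 0.13, adjusted p = 0.163), and NEVKP overlapped it at -0.25. SLC35F1 differed by 0.11 in SCS and 0.17 in NEVKP, the latter -0.03 without NEVKP replicate 2. The other 8 members of these branches differed by between -0.29 and 0.30 in both comparisons. Of these, SLC35F3 was at -0.57 in SCS and -0.70 in NEVKP without No Storage replicate 2, whose value of 3.26 was its lowest.

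Averaged by role, the sugar carriers of an array lay 0.04, -0.12 and 0.08 from the No Storage mean in No Storage, -0.19, -0.30 and -0.07 in SCS, and -0.16, 0.04 and 0.07 in NEVKP. Nucleotide-sugar carriers lay at -0.08, -0.01 and 0.09, then -0.02, -0.47 and -0.11, then -0.09, 0.10 and -0.29. Metal carriers lay at -0.03, 0.01 and 0.02, then 0.07, -0.26 and 0.05, then -0.02, 0.02 and -0.07. The groups overlapped in each of these 3 roles, and SCS replicate 2 was the lowest array in each of them.

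The mean difference of SCS from No Storage was -0.19 for sugar, -0.20 for nucleotide-sugar and -0.05 for metal carriers, and without SCS replicate 2 it was -0.13, -0.07 and 0.06, so that the metal value turned sign. For NEVKP it was -0.02, -0.09 and -0.02. The median SCS difference was -0.08 for sugar, -0.20 for nucleotide-sugar and 0.02 for metal carriers, beside 0.0 over all named genes. By direction alone, 12 of 18 sugar carriers, 7 of 10 nucleotide-sugar carriers and 9 of 20 metal carriers were lower in SCS, and 8, 7 and 10 were lower in NEVKP. Of all 12362 named genes, 6177 were lower in SCS and 6369 in NEVKP.

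**Figure D4:**
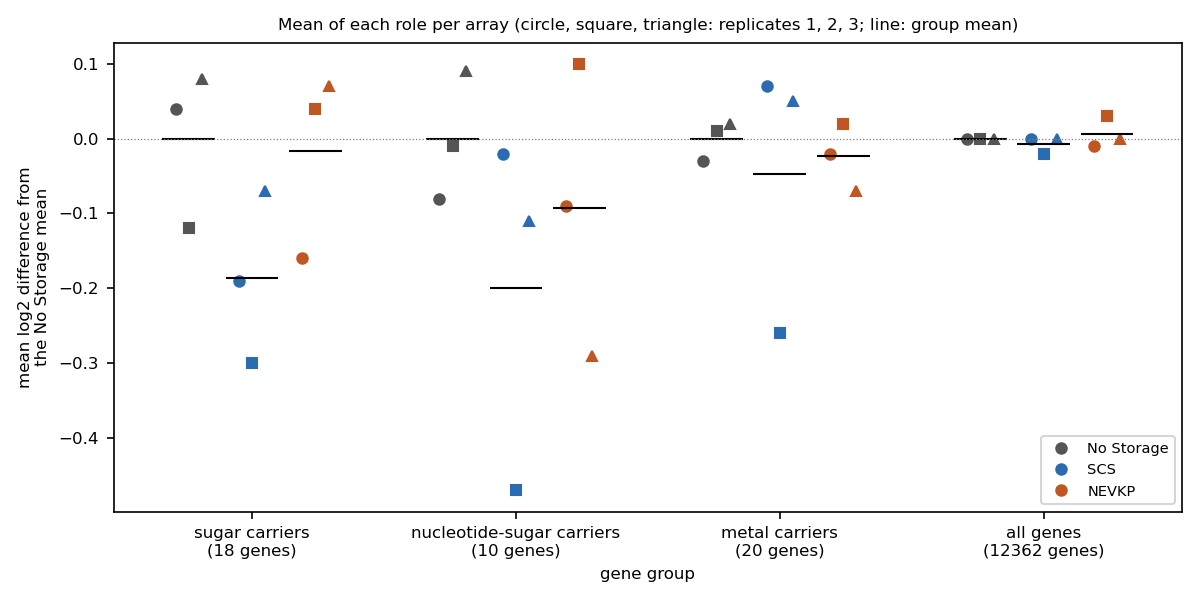
Mean log2 difference from the No Storage mean over the 18 sugar, 10 nucleotide-sugar and 20 metal carriers and over all 12362 named genes, for each array. The SCS squares, replicate 2, lie at -0.30, -0.47 and -0.26 for the transporter roles and at -0.02 for all genes.

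Genes that act beside these carriers were measured for comparison. Of 30 listed enzymes and regulators of sugar handling, 19 were measured and 0 passed an adjusted p of 0.05 in limma in any comparison. At an unadjusted p under 0.05, 2 were higher and 6 lower in SCS, 1 higher and 3 lower in NEVKP, and 2 higher and 0 lower in NEVKP against SCS. Over all named genes, 7.79% were higher and 9.05% lower in SCS, and 5.16% and 4.76% in NEVKP. In NEVKP against SCS these shares were 4.42% and 3.29%. The median difference was -0.26 in SCS and -0.23 in NEVKP, beside 0.0 and -0.01 over all named genes. SORD, which oxidises sorbitol to fructose, differed by -0.87 in SCS and -0.54 in NEVKP, and PCK2, the mitochondrial enzyme of gluconeogenesis, by -0.99 and -0.64. KHK, which phosphorylates fructose, differed by -0.66 in SCS, and HNF4A, a transcription factor of the proximal tubule, by -0.73 in NEVKP. HK3, a hexokinase of myeloid cells, lay 0.81 higher in each. All its SCS arrays lay above No Storage, but NEVKP replicate 1, at 5.29, lay within the No Storage range of 5.04 to 5.38. TXNIP, a glucose-induced protein that lowers glucose uptake, differed by 0.65 between NEVKP and SCS.

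Of 37 listed genes of nucleotide-sugar synthesis and glycosylation, 25 were measured, and 0 passed the adjusted threshold. In SCS 5 were higher and 4 lower at an unadjusted p under 0.05, among them NANS, an enzyme of sialic acid synthesis (0.58), UXS1, which makes UDP-xylose (0.37), and PMM1, a phosphomannomutase (-0.69). In NEVKP 1 was higher and 2 lower, led by the sialyltransferase gene ST3GAL1 (-1.39, limma adjusted p = 0.299). NEVKP against SCS gave 1 higher and 2 lower. The shares higher and lower over all named genes were 7.79% and 9.05% in SCS and 5.16% and 4.76% in NEVKP. They were 4.42% and 3.29% in NEVKP against SCS. The median difference from No Storage was 0.14 in SCS and 0.05 in NEVKP.

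Of 52 listed genes of metal binding, storage and regulation, 34 were measured, and 0 passed the adjusted threshold. In SCS 0 were higher and 4 lower at an unadjusted p under 0.05, namely CNNM2, a magnesium homeostasis gene of the distal tubule (-0.69), FBXL5, an iron-sensing ubiquitin ligase subunit (-0.57), NCOA4, the receptor for ferritin breakdown (-0.42), and HMOX2, a haem oxygenase (-0.44). In NEVKP 2 were higher, the lysosomal ATPase gene ATP13A2 (0.39) and the ferroxidase gene CP (0.84), and 1 was lower, HMOX2 (-0.39). For CP the NEVKP arrays, at 9.16, 10.65 and 9.5, overlapped No Storage, at 9.39, 8.74 and 8.66. In NEVKP against SCS 1 was higher and 2 lower, with CNNM2 at 0.59 and the ferritin heavy chain gene FTH1 at -0.26. Beside these counts, 7.79% of all named genes were higher and 9.05% lower in SCS, and 5.16% and 4.76% in NEVKP. The shares were 4.42% and 3.29% in NEVKP against SCS. The median difference from No Storage was -0.04 in SCS and -0.08 in NEVKP.

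Tubule markers lay lower in SCS, where the mean over the 11 measured SLC5 genes was -0.51, -0.62 and -0.21 relative to No Storage. The mean of the 6 measured proximal tubule markers, of 10 listed, ran from -0.09 to 0.09 in No Storage, -0.88 to -0.36 in SCS and -1.08 to -0.04 in NEVKP, with NEVKP replicate 2 lowest. On that array SLC5A2, SLC5A9, SLC5A11 and SLC5A12 were also at their lowest among the NEVKP arrays, while SLC5A1 and SLC5A8 were at their highest. These markers did not all point one way, since GATM differed by -1.26 and BHMT by -1.55 in SCS, while LRP2 differed by -0.31 and SLC34A1 by 1.02. The 4 measured markers of loop and distal tubule ran from -0.29 to 0.22, -1.65 to -0.72 and -0.18 to 0.41, and the 6 of collecting duct from -0.10 to 0.13, -1.05 to -0.62 and -0.57 to -0.18. Means of 3 podocyte markers ran from -0.09 to 0.19, -0.53 to -0.06 and -0.45 to 0.08. Those of 3 endothelial markers ran from -0.03 to 0.06, -0.39 to -0.09 and -0.72 to 0.08. For 5 T and NK cell markers they ran from -0.22 to 0.13, 0.14 to 0.20 and 0.36 to 0.54. For 3 fat and muscle markers they ran from -0.10 to 0.10, -0.32 to 0.16 and -0.18 to 0.04. For 3 listed red cell markers they ran from -0.06 to 0.08, -0.50 to -0.09 and -0.45 to -0.35. Of these 3, HBB and ALAS2 were dim and differed from No Storage by between -0.23 and -0.11. SLC4A1, which was not dim, differed by -0.75 in SCS and in NEVKP. The red cell mean thus mostly followed 1 gene and does not measure red cells. The part of these shifts in the transporter values was not tested.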

How the data were processed

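Expression in 9 pig kidney biopsies was deposited as log2 intensities of probe sets, which the authors obtained by RMA (background correction, normalisation between arrays, probe summary), per the submitters' processing notes. These also name limma 3.34.14. The genome build was not given in the sources used here. Array annotation gave 1 symbol for 13323 of 19124 probe sets, several for 357 and none for 5444. The symbol matched the RefSeq gene table by gene ID for 59 of the 63 transporters. Sequences and coordinates were not used here.

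The group was the only factor in a linear model of all 9 arrays and all probe sets (limma 3.58.1, R 4.3.3, empirical Bayes, 6 residual and 4.12 prior degrees of freedom). Benjamini-Hochberg adjustment ran over all probe sets, and intervals are 95% intervals of these fits. Each array was another animal, and the number of arrays limits the precision. In simulated SCS and No Storage data, 200 of 19124 probe sets were shifted by 1.5 log2 units, and 194 of them were called, with 8 false calls. By the brightest probe set of each gene, the transporters differed by less in SCS against No Storage, between -1.21 and 1.23. The second probe set of SLC5A8 differed by more, at -2.17. The simulation thus checks the steps and does not show how often differences of the transporters' sizes are called.

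Transporters were named at an unadjusted p under 0.05, up to 10 per direction and comparison, or from a fixed set, and list genes among the first 6 by p. SLC35D1 in SCS, the marker examples and the small values of other members were added after their values were seen. Members and lists were chosen with earlier results of these data known. Other settings tried were a block for replicate number, a robust prior with a trend, weights for arrays, leaving out the dimmest 25%, centring each array, averaging the probe sets of a gene, fitting only the groups compared, and leaving out arrays in turn. Leaving out both lowest-weight arrays was chosen after seeing the data.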

Additional observations from a re-analysis of the deposited data

How the results depend on the processing

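Under 17 alternatives, 0 of 63 transporters passed an adjusted p of 0.05 in limma in any of the 3 comparisons. The count at an unadjusted p under 0.05 stayed within 1.5 times of 15 in SCS against No Storage. For NEVKP against No Storage it ran from 2 without No Storage replicate 3 to 15 without NEVKP replicate 1, and was 3 without NEVKP replicate 2. For NEVKP against SCS, where it was 7, it was 3 with array weights, 4 in a fit on the compared groups alone, 2 without both lowest-weight arrays, and from 3 to 10 without single arrays (3 without SCS replicate 2, 4 without NEVKP replicate 2). Without both lowest-weight arrays the NEVKP minus SCS mean was -0.12 for nucleotide-sugar carriers and -0.10 for metal carriers, against 0.11 and 0.02. These causes were not tested. Same-numbered arrays deviated together at correlations of -0.14 to 0.13 over 9 pairs, and differently numbered arrays at -0.15 to 0.17 over 18 pairs. The replicate numbers thus showed no pairing, but 3 arrays a group are too few to exclude it. With the replicate number as a block the counts were 14, 10 and 7.

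Of 62 named differences, 17 turned sign under at least 1 alternative. With centred arrays these were SLC39A8 in SCS against No Storage (-0.04) and SLC2A2 (-0.0023) and SLC30A10 (-0.01) in NEVKP against No Storage. With array weights SLC35F1 was -0.07 in NEVKP against SCS. Without both lowest-weight arrays SLC30A10 was -0.02, SLC35A1 -0.08, SLC35F1 -0.03 and SLC39A8 0.07 in NEVKP against No Storage, and SLC35A1 was -0.04, SLC35A3 -0.01 and SLC35F1 -0.15 in NEVKP against SCS. Ranges without single arrays crossed 0 in SCS against No Storage for SLC30A10 (-0.07 to 0.30), SLC37A2 (-0.05 to 0.26) and SLC39A8 (-0.28 to 0.34). They did so in NEVKP against No Storage for SLC30A10 (-0.02 to 0.10), SLC35A1 (-0.08 to 0.38), SLC35F1 (-0.03 to 0.37) and SLC39A8 (-0.52 to 0.07). In NEVKP against SCS they did so for SLC11A1 (-0.52 to 0.45), SLC30A10 (-0.26 to 0.12), SLC35F1 (-0.15 to 0.26), SLC37A1 (-0.20 to 0.11), SLC39A5 (-0.19 to 0.10), SLC39A8 (-0.65 to 0.06) and SLC50A1 (-0.19 to 0.0021). SLC30A10 and SLC5A5 had no value with the dimmest probe sets left out.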
